A study of Mus musculus with 8 samples.

Results

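The genes described here are 38 genes of the interferon response and of MHC class I antigen presentation, taken by symbol from a fixed list that spans interferon signalling, antiviral effectors and class I peptide loading without the proteasome subunits. The list holds the symbols in lower case (irf1, isg15, b2m and h2-k1, for example), and they were matched without regard to case. All 38 were found among the 22558 genes of the deposited expression table, and all 38 passed the filter on low counts into the 14847 genes tested. Of these, 9 genes (Oas2, Oasl2, Mx1, Mx2, Rsad2, Ifi44, Ifi27l2a, Parp14 and Iigp1) would not have passed on their counts in the cultured fibroblasts alone. Oas2, Mx1 and Mx2 had no fragment there. RNA was sequenced from mouse cells sorted by flow cytometry by the presence at their surface of FAP, fibroblast activation protein, which is a serine protease anchored in the membrane of some stromal cells. The sorted cells came from dissociated visceral adipose tissue, from skeletal muscle and from the pancreas, whose cells carry the label stellate cells. These 3 FAP+ populations were set against mouse embryonic fibroblasts (MEFs) that had been sorted as FAP-negative, kept in culture for 3 passages and sorted a second time. The labels name no genetic change and no treatment of the cells in any group. Each group had 2 libraries, each from a separate experiment, so the errors below reflect the spread between those experiments. In the comparisons with MEFs, FAP status, tissue origin, the embryonic source of the MEFs and their culture cannot be told apart.

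The libraries held 15516319 to 27759399 estimated fragments. Levels are given as normalized CPM, in which each library's counts are brought to a common total and which include a library scaling (TMM) of 0.516 and 0.889 in adipose and 1.01 to 1.31 elsewhere, and as FPKM, which divide by gene length but lack that scaling. All 38 genes had fragments in each FAP+ library and 35 had them in each MEF library. The 6 fibroblast markers examined summed to 48617 and 40337 CPM in adipose FAP+ cells, 38128 and 34899 in muscle FAP+ cells, 21286 and 24644 in pancreas FAP+ cells and 4733 and 3546 in MEFs. Of the stellate cell markers, Gfap and Lrat were at or below 0.817 CPM in every library, the pancreas ones included, so the stellate label was not borne out by them, while Des had 41.6 and 34.6 CPM in pancreas FAP+ cells. As these are bulk samples, a smaller number of cells that express a gene and a lower level of RNA per cell cannot be told apart.

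Interferons act through cell surface receptors and the JAK kinases, which phosphorylate STAT proteins. Type I interferons act through a complex with STAT2 and IRF9 that binds interferon-stimulated response elements (ISRE), and interferon gamma acts at gamma-activated sites (GAS). The genes switched on include transcription factors that feed the response, sensors of viral RNA, proteins that block viral replication or mark proteins with ISG15, GTPases that attack the vacuoles of intracellular pathogens, and the class I molecules that display peptides to CD8 T cells. Fibroblasts carry these receptors, and class I molecules are found on nearly all nucleated cells.

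Promoter sequences are shown to let the reader see the elements by which the signalling is known to reach these genes. RefSeq promoters (GRCm38.p6, 250 bases before to 50 after the gene start) were at hand for 27 of the 38 genes, and the other 11 (Nlrc5, Oas2, Mx1, Mx2, Rtp4, Ifi27l2a, Usp18, Parp9, Parp14, Iigp1 and Tap2) are named only. The 250 bases before the start of Isg15 (chr4:156200819-156201068, minus strand) and of Irf1 (chr11:53769764-53770013, plus strand) are printed whole, 5′ to 3′. Capitals mark the ISRE core letters in Isg15, where 3 matches overlap and begin at -78, -72 and -66 from the gene start, and the GAS core letters in Irf1, which begin at -90.
Isg15: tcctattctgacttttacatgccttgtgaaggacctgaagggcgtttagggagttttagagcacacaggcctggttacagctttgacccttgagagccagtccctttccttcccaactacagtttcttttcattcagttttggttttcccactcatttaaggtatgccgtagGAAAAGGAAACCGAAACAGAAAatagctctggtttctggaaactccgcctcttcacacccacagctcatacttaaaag
Irf1: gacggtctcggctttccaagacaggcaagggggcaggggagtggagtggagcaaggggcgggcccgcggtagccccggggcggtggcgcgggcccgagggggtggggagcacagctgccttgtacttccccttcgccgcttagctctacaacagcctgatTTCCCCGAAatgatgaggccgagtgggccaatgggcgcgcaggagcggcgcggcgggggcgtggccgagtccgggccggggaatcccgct

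The ISRE core was searched as TTTC-NN-TTTC on both strands, which reads GAAA-NN-GAAA on the opposite strand, where N is any base, and the GAS core as TTC-NNN-GAA, which reads the same on both. The ISRE core stood in 13 of the 27 promoters (48.1%), against 1079 of 27025 genes with a promoter in the table (3.99%) and 3.44% of all 32851 windows of 300 bases. The 13 were those of Stat2, Ifih1, Ddx58, Ifit1, Ifit3, Rsad2, Bst2, Isg15, Gbp2, Gbp3, Igtp, Irgm1 and B2m. The GAS core stood in 5 of 27 (Irf1, Ifit2, Bst2, Ifi35 and Igtp, 18.5%), against 2582 of 27025 genes (9.55%) and 8.3% of all windows, and in Bst2 the GAS letters overlap the ISRE letters. Stretches around the ISRE core letters, in capitals, show how they sit in an IFIT gene (chr19:34640773-34640825, plus strand), in tetherin (chr8:71537575-71537614, minus strand), in the GTPase genes Gbp2 (chr3:142620592-142620625, plus), Igtp (chr11:58199510-58199543, plus) and Irgm1 (chr11:48871423-48871462, minus), and in the class I light chain gene B2m (chr2:122147536-122147569, plus).
Ifit1: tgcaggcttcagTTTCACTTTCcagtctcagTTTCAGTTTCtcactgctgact
Bst2: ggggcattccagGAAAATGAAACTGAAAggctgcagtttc
Gbp2: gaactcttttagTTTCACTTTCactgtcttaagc
Igtp: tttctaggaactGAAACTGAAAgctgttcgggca
Irgm1: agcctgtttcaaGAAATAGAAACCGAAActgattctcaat
B2m: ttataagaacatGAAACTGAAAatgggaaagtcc

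A match describes these letters in this window and is not a measured binding site. The 13 genes with the ISRE core had a median fitted log2 fold change over MEFs of 4.29 in adipose, 3.60 in muscle and 3.98 in FAP+ cells of the pancreas, and the 14 without it had 2.40, 2.67 and 2.46 in the same order. The ranges overlapped, from 0.43 to 6.79 with the core and 0.55 to 6.91 without it in adipose, so the letters did not separate strongly from weakly changed genes. Ddx58, whose ISRE core begins at 3 after the start, was among the genes that were not called against MEFs.

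Nearly the whole module stood higher in FAP+ cells than in MEFs. With edgeR's quasi-likelihood test and Benjamini-Hochberg adjustment over all genes tested, a gene was called at an adjusted p below 0.05. In adipose FAP+ cells 35 of 38 genes (92.1%) were called higher than in MEFs, where 26.9% of all genes tested were called higher. In muscle FAP+ cells it was 35 of 38 (92.1%), against 23.7% of all genes, and in pancreas FAP+ cells 34 of 38 (89.5%), against 23.1%. Of the 9 genes that MEFs alone would not have carried through the filter, 8 were called higher in each population, which the filter favours. Of the 29 that MEFs alone would have carried, 27, 27 and 26 were called higher in adipose, muscle and pancreas FAP+ cells. The median log2 fold changes of the 29 were 3.57, 3.27 and 3.20. No gene of the module was called lower in any of the 3 comparisons, and none had a lower value at an unadjusted p below 0.05, where 23.2%, 20% and 19.4% of all genes were called lower. DESeq2, limma and the test on recovered reads gave 0 lower as well.

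The median log2 fold change over the 38 genes was 3.95 in adipose, 3.65 in muscle and 3.59 in FAP+ cells of the pancreas, while over all genes it was 0.05, 0.03 and 0.02. With the 3 genes that were at 0 in MEFs held at their lower bound, the medians were 3.68, 3.65 and 3.59. On that footing 22 genes in each population were at least 10-fold above MEFs, and 9, 8 and 8 were at least 50-fold above. The share of all genes at these folds is not given here. Oasl2, Mx2, Rsad2, Ifi27l2a, Parp14 and Iigp1 were at least 50-fold above MEFs in each population. They passed the filter through FAP+ cells alone, which favours large changes. The genes called higher in all 3 populations numbered 34 (89.5%, against 16.5% of all genes), and the remaining 4 were Nlrc5, Ddx58, Ifit2 and Ifi44. All 6 FAP+ libraries stood above both MEF libraries for 35 genes (92.1%, against 28.2% of all genes). These 3 comparisons share the MEF libraries.

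Some calls rested on the scale. On log2(FPKM + 1), a scale without the TMM factors that shrinks the change of low genes, limma called 26, 28 and 30 of the 38 genes higher in adipose, muscle and pancreas FAP+ cells. Over all 21784 genes tested on that scale it called 1750, 2171 and 2256 higher. Irf9, Parp9, Dtx3l and B2m lost their call in all 3 populations on that scale. Trim25 lost it in adipose and muscle, Nlrc5, Mx1, Ifi35 and Tapbp in adipose, and Irgm1 and Tap1 in muscle, while every value kept its direction.

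**Figure D1:**
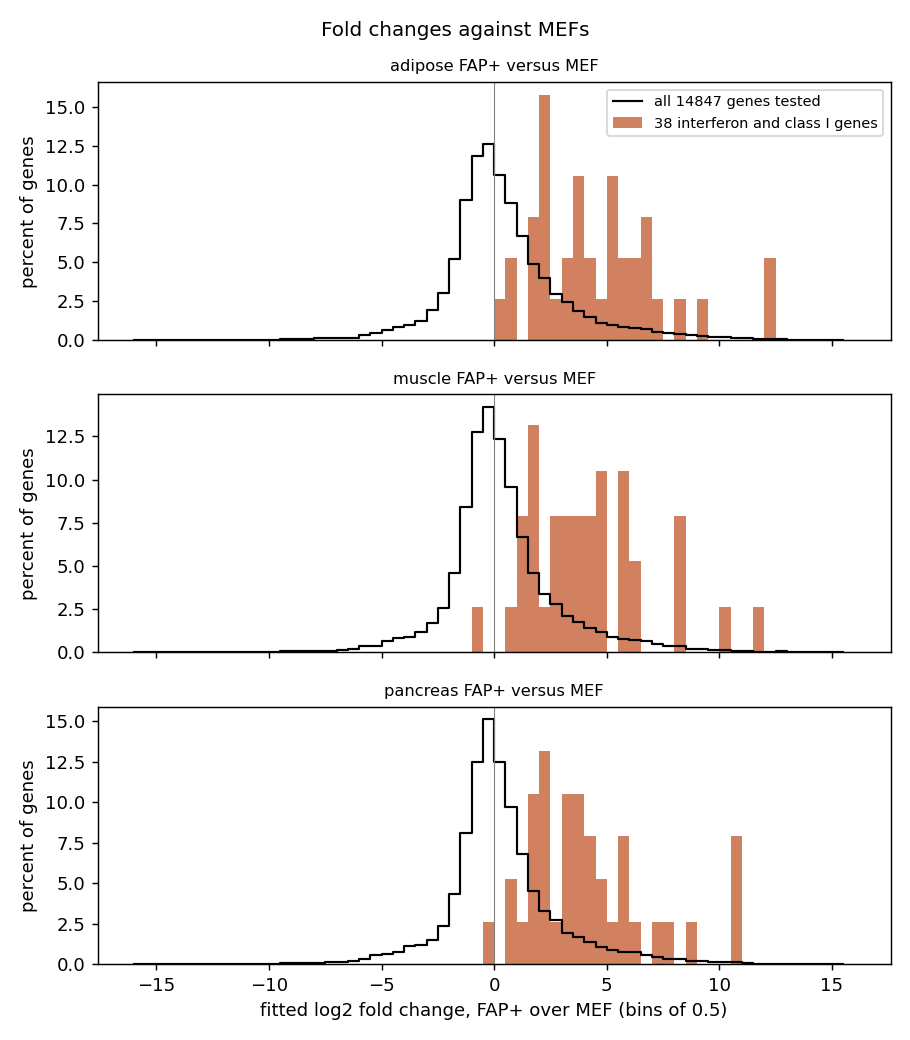
Fitted log2 fold changes over MEFs (x axis, bins of 0.5) as percent of genes (y axis), with the 38 interferon and class I genes as filled bars and all 14847 genes tested as a black outline, for adipose, muscle and pancreas FAP+ cells from top to bottom. The outline peaks near 0, with medians of 0.05, 0.03 and 0.02, and the filled bars lie to its right, with medians of 3.95, 3.65 and 3.59 (genes without fragments in MEFs are at their fitted value).

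Markers of other cell types were read beside these counts. The 13 leukocyte markers summed to 57.1 and 19.6 CPM in adipose FAP+ cells, 3.48 and 3.29 in muscle FAP+ cells, 4.13 and 3.77 in pancreas FAP+ cells and 2.88 and 3.53 in MEFs. Of 7 that could be tested, 5 were called higher in adipose FAP+ cells than in MEFs and 0 in muscle or pancreas FAP+ cells. Ptprc, which encodes the pan-leukocyte antigen CD45, reached at most 0.630 CPM in any library, Tyrobp was at 0 in all muscle, pancreas and MEF libraries, and Fcer1g reached 33.1 and 5.45 CPM in the adipose libraries. The 7 endothelial markers summed to 346 and 362 CPM in adipose FAP+ cells, 101 and 161 in muscle FAP+ cells, 67.3 and 76.5 in pancreas FAP+ cells and 3.71 and 3.15 in MEFs, and 7, 6 and 5 of them were called higher than in MEFs in adipose, muscle and pancreas FAP+ cells. Much of the sum outside adipose was Tek, an angiopoietin receptor, at 86.3 and 102 CPM in muscle and 58.0 and 68.8 in pancreas FAP+ cells, while Pecam1 was at 57.7 and 114 CPM in adipose, 4.10 and 20.2 in muscle and 1.41 and 0.917 in FAP+ cells of the pancreas. Whether leukocytes had a part in the muscle and pancreas calls, where their markers summed to 3.29 to 4.13 CPM, was not tested. Markers of each tissue's own cells also differed from MEFs: 5 of 5 pancreatic acinar markers were called higher in pancreas FAP+ cells (summed level 97.1 and 45.2 CPM, against 1.63 and 1.78 in MEFs), 3 of 3 adipocyte markers tested in adipose (11.3 and 9.41 CPM, against 0 and 0.0452) and 4 of 5 muscle fibre markers in muscle (55.3 and 71.1 CPM, against 24.8 and 21.0). The muscle fibre markers also summed to 69.3 and 18.6 CPM in adipose and 45.5 and 42.5 in pancreas FAP+ cells. There 2 and 3 of 5 were called higher than in MEFs and 1 and 1 lower. Between tissues, 3 were called higher in muscle than in adipose and 2 lower in pancreas than in muscle. Pericyte markers were called higher for 4, 3 and 3 of 5 and lower for 1, 0 and 0 in adipose, muscle and pancreas FAP+ cells. The summed level of the pericyte markers was not higher than in MEFs. It was 73.8 and 92.2 CPM in adipose, 68.2 and 102 in muscle and 105 and 100 in pancreas FAP+ cells. In MEFs it was 87.4 and 115 CPM. The part of any of these cells in the differences was not tested.

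**Figure D2:**
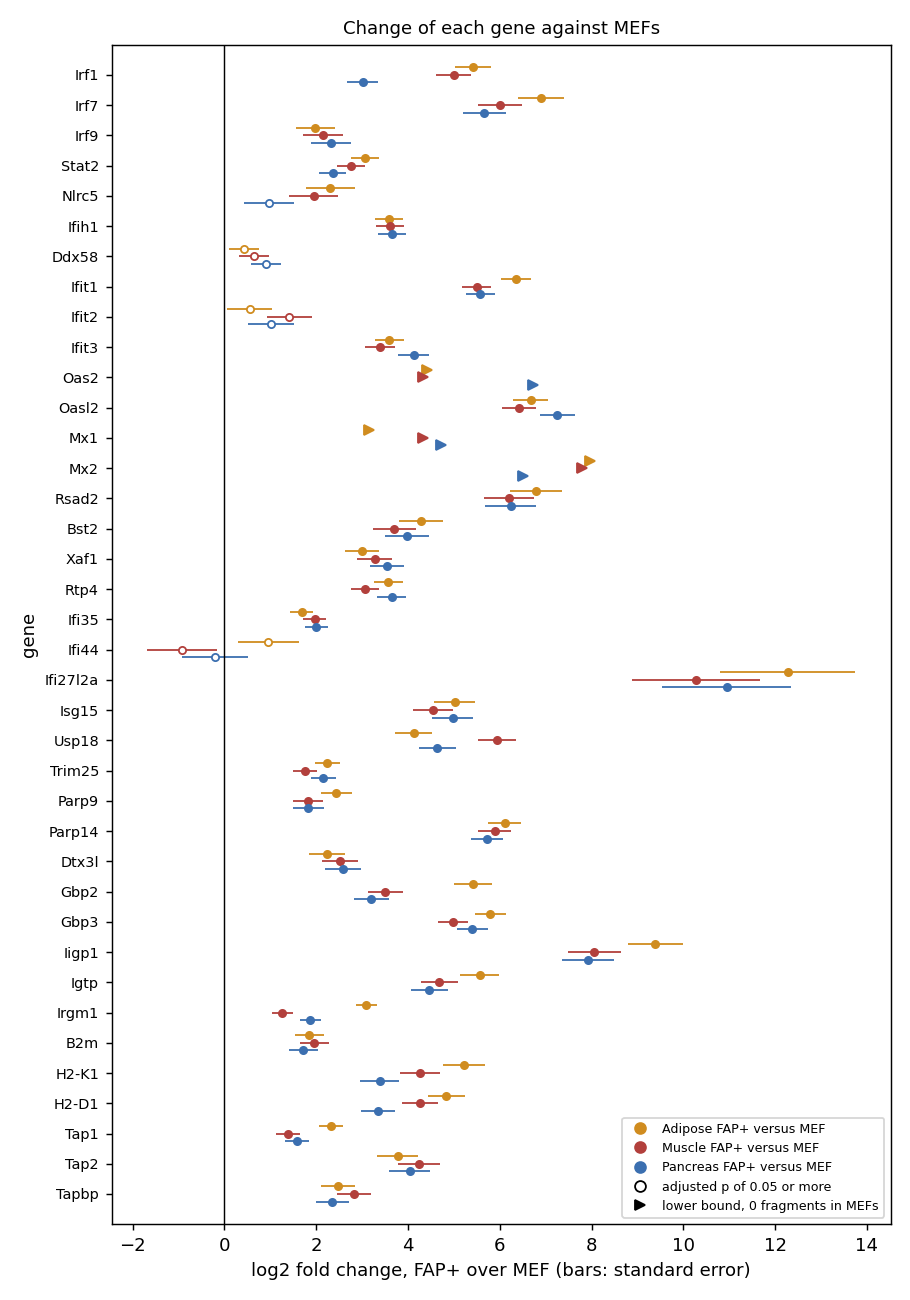
Log2 fold change of each of the 38 genes (rows, by role) over MEFs in adipose (amber), muscle (red) and pancreas (blue) FAP+ cells, with bars of 1 standard error; open circles have an adjusted p of 0.05 or more, and triangles are lower bounds for Oas2, Mx1 and Mx2, which had 0 fragments in MEFs. Open circles stand at Ddx58, Ifit2 and Ifi44 in all 3 populations and at Nlrc5 in pancreas FAP+ cells, and all other points lie to the right of 0.

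The transcription factors of the response were led in level by Irf1, which drives interferon-gamma and class I target genes. Irf1 had 2008 and 2418 CPM in adipose FAP+ cells, 1507 and 1807 in muscle FAP+ cells, 487 and 349.7 in pancreas FAP+ cells and 55.8 and 48.0 in MEFs. Its log2 fold changes over MEFs were 5.41 ± 0.39, 4.996 ± 0.38 and 3.01 ± 0.35 (standard error; adjusted p = 6.24e-05, 9.16e-05 and 0.000502), and the level in adipose and muscle was above that in pancreas in every library. Irf7, the amplifier of type I interferon production, was almost silent in MEFs. It had 137 and 67.4 CPM in adipose FAP+ cells, 67.1 and 41.6 in muscle FAP+ cells, 41.9 and 44.3 in pancreas FAP+ cells and 0.827 and 0.845 in MEFs, a log2 difference of 6.91, 5.996 and 5.66 (adjusted p = 6.43e-05, 0.000112 and 0.000129). Without the first adipose library its adipose value was 6.31.

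Irf9, the DNA-binding partner of STAT2, changed less. Irf9 had 55.6 and 142 CPM in adipose FAP+ cells, 114 and 106 in muscle FAP+ cells, 115 and 136 in pancreas FAP+ cells and 28.0 and 21.98 in MEFs, which gives log2 fold changes of 1.98, 2.14 and 2.32 (adjusted p = 0.00758, 0.00619 and 0.0046). The adipose libraries lay far apart, and without the second the adipose value was 1.14. Without the second MEF library Irf9 was no longer called in adipose (adjusted p = 0.0608) or in muscle FAP+ cells (0.0548). Stat2, the partner of IRF9, was higher by 3.05, 2.76 and 2.36 log2 units in adipose, muscle and pancreas FAP+ cells.

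Nlrc5, the transactivator of class I genes, was scarce throughout. It had 2.64 and 1.47 CPM in adipose FAP+ cells, 1.41 and 1.78 in muscle FAP+ cells, 1.07 and 0.564 in pancreas FAP+ cells and 0.391 and 0.427 in MEFs, so that every FAP+ library was above both MEF libraries. Nlrc5 was called in adipose (log2 2.31 ± 0.54, adjusted p = 0.00955) and muscle (1.95 ± 0.53, adjusted p = 0.0205) but not in pancreas FAP+ cells (0.98 ± 0.54, adjusted p = 0.179). The difference between pancreas and adipose FAP+ cells itself was -1.33 ± 0.52 (adjusted p = 0.158) and that between pancreas and muscle -0.97 ± 0.52 (adjusted p = 0.498), so no difference of Nlrc5 between the tissues was shown. Either MEF library left out ended the adipose call (adjusted p = 0.0682 and 0.0544), and any of the muscle or MEF libraries left out ended the muscle call (adjusted p = 0.0696 to 0.122).

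The 2 cytoplasmic sensors of viral RNA parted. Ifih1, which encodes MDA5, had 35.9 and 45.9 CPM in adipose FAP+ cells, 46.5 and 36.8 in muscle FAP+ cells, 36.5 and 50.1 in pancreas FAP+ cells and 3.33 and 3.53 in MEFs, and its fold changes were nearly the same in each tissue, at log2 3.58 ± 0.30, 3.60 ± 0.30 and 3.66 ± 0.30 (adjusted p = 0.000116, 0.000136 and 0.000125). Ddx58, which encodes RIG-I, had 11.3 and 19.7 CPM in adipose FAP+ cells, 18.2 and 18.1 in muscle FAP+ cells, 19.2 and 24.0 in pancreas FAP+ cells and 13.1 and 10.01 in MEFs. The first adipose library lay between the MEF libraries, and Ddx58 was not called in any population (log2 0.43 ± 0.32, 0.65 ± 0.32 and 0.90 ± 0.33; adjusted p = 0.295, 0.139 and 0.0565).

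Of the 14 IFIT, OAS, Mx and other antiviral effectors, 12 were called higher in each FAP+ population and 0 lower. Among genes with fragments in MEFs, the largest fitted fold change in each population was at Ifi27l2a, one of a family of small hydrophobic interferon-induced proteins. Ifi27l2a had 871 and 82.0 CPM in adipose FAP+ cells, 147 and 90.4 in muscle FAP+ cells, 228 and 149 in pancreas FAP+ cells and 0.107 and 0.0544 in MEFs, where MEFs held 6 fragments over both libraries. Its log2 fold changes were 12.28 ± 1.47, 10.27 ± 1.39 and 10.94 ± 1.42, and like Oas2, Mx1 and Mx2 it passed the filter through FAP+ cells alone. The first adipose library exceeded the second about 10.6-fold, and the adipose value was 9.75 without the first and 13.14 without the second.

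Bst2, or tetherin, which holds budding virions at the cell surface, had 197 and 83.4 CPM in adipose FAP+ cells, 109.7 and 76.9 in muscle FAP+ cells, 129 and 97.0 in pancreas FAP+ cells and 6.80 and 7.51 in MEFs. Its log2 fold changes were 4.29, 3.70 and 3.98 (adjusted p = 0.000396, 0.00073 and 0.000577), with 3.54 in adipose without the first adipose library. Ifi35, an interferon-induced leucine zipper protein, was well expressed in MEFs and still higher in every FAP+ library. It had 42.2 and 36.7 CPM in adipose FAP+ cells, 54.3 and 42.3 in muscle FAP+ cells, 52.6 and 46.0 in pancreas FAP+ cells and 12.7 and 11.9 in MEFs, which is 1.68, 1.97 and 2.00 on the log2 scale (adjusted p = 0.00133, 0.000749 and 0.000725).

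The dynamin-like GTPases Mx1 and Mx2 and the oligoadenylate synthase Oas2, which makes the activator of RNase L, were absent from both MEF libraries down to the counting floor of 3 fragments per library (0.0900 and 0.0911 CPM). Mx2 had 22.8 and 22.6 CPM in adipose, 22.6 and 17.8 in muscle and 8.55 and 7.84 in FAP+ cells of the pancreas, at least 251-fold, 223-fold and 90.6-fold higher than in MEFs. Oas2 was highest in the pancreas, with 2.16 and 1.72 CPM in adipose, 1.87 and 1.75 in muscle and 11.1 and 7.92 in FAP+ cells of the pancreas, at least 21.4-fold, 20.0-fold and 105-fold higher. Mx1, which blocks influenza virus in mice, stayed low, at 1.23 and 0.381 CPM in adipose, 2.16 and 1.48 in muscle and 2.36 and 2.42 in FAP+ cells of the pancreas, at least 8.89-fold, 20.1-fold and 26.4-fold higher. All 3 genes were among those called in each population, which their passing the filter through FAP+ cells alone favours, so their p-values are not given.

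The other called effectors were Ifit1, Ifit3, Oasl2, Rsad2, Xaf1 and Rtp4. Ifit1, which binds viral RNA caps, was higher by 6.35, 5.503 and 5.58 log2 units in adipose, muscle and pancreas FAP+ cells. Oasl2, an OAS-like protein, was higher by 6.67, 6.41 and 7.26, and Rsad2, or viperin, which makes a chain-terminating nucleotide, by 6.79, 6.20 and 6.24, with 5 fragments over the MEF libraries. Ifit3, Xaf1 and Rtp4 lay between 2.99 and 4.12 in all 3 populations. Of the Ifit3 transcript, 51.2% of windows of 50 bases also occur in other genes, mainly Ifit3b, so its value may hold reads of both.

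Ifit2 and Ifi44 were not called in any population. Ifit2, a relative of Ifit1 with a similar role, had 4.12 and 10.9 CPM in adipose FAP+ cells, 13.8 and 13.9 in muscle FAP+ cells, 7.72 and 13.3 in pancreas FAP+ cells and 6.33 and 4.03 in MEFs, and its muscle value just missed the threshold (log2 0.55 ± 0.49, 1.42 ± 0.50 and 1.02 ± 0.49; adjusted p = 0.374, 0.0503 and 0.132). Ifi44 was near the floor everywhere, with 0.482 and 0.503 CPM in adipose FAP+ cells, 0.0855 and 0.180 in muscle FAP+ cells, 0.212 and 0.216 in pancreas FAP+ cells and 0.322 and 0.159 in MEFs (log2 0.96 ± 0.66, -0.92 ± 0.76 and -0.21 ± 0.71; adjusted p = 0.255, 0.355 and 0.836). For both genes FAP+ and MEF libraries overlapped.

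All 6 genes of ISG15 conjugation and of the PARP9-DTX3L complex were called higher in each population and 0 lower. Isg15, the ubiquitin-like modifier, had 23.3 and 32.6 CPM in adipose FAP+ cells, 26.9 and 13.5 in muscle FAP+ cells, 30.7 and 23.7 in pancreas FAP+ cells and 0.778 and 0.943 in MEFs, a log2 difference of 5.01, 4.54 and 4.97 (adjusted p = 0.000149, 0.000243 and 0.000182). Usp18, which removes ISG15 and restrains the type I receptor, had 13.2 and 9.60 CPM in adipose FAP+ cells, 51.5 and 28.9 in muscle FAP+ cells, 14.7 and 17.9 in pancreas FAP+ cells and 0.617 and 0.666 in MEFs (log2 4.12, 5.94 and 4.64; adjusted p = 0.000204, 7.60e-05 and 0.000152). Both muscle libraries exceeded every other library for Usp18. Trim25, a ubiquitin ligase that acts on RIG-I, was present in MEFs and still higher in every FAP+ library.

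Trim25 had 37.9 and 39.0 CPM in adipose FAP+ cells, 28.5 and 26.3 in muscle FAP+ cells, 33.4 and 38.7 in pancreas FAP+ cells and 9.56 and 6.64 in MEFs (log2 2.25, 1.76 and 2.15; adjusted p = 0.000526, 0.00164 and 0.000715). Parp14, an ADP-ribosyltransferase, stood out in this group, higher by 6.10, 5.89 and 5.73 log2 units, with 27 fragments over both MEF libraries. Parp9 and its partner ligase Dtx3l ranged from 1.82 to 2.58 over the 3 populations.

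All 5 guanylate-binding proteins and immunity-related GTPases were called higher in each population and 0 lower. Gbp2 had 151 and 88.9 CPM in adipose FAP+ cells, 29.4 and 34.7 in muscle FAP+ cells, 28.9 and 22.9 in pancreas FAP+ cells and 3.45 and 2.17 in MEFs, a log2 difference of 5.41, 3.51 and 3.20 (adjusted p = 8.20e-05, 0.000397 and 0.000572). Irgm1, which regulates the other immunity-related GTPases, had 93.8 and 103 CPM in adipose FAP+ cells, 28.6 and 26.7 in muscle FAP+ cells, 43.0 and 41.2 in pancreas FAP+ cells and 11.6 and 11.5 in MEFs (log2 3.09, 1.26 and 1.87; adjusted p = 7.74e-05, 0.00308 and 0.000586). MEFs held Irgm1 at a level that the other members of the family did not approach there. Igtp, or Irgm3, had 55.5 and 29.3 CPM in adipose FAP+ cells, 20.9 and 25.01 in muscle FAP+ cells, 22.4 and 17.0 in pancreas FAP+ cells and 0.894 and 0.887 in MEFs (log2 5.56, 4.68 and 4.46; adjusted p = 7.78e-05, 0.000155 and 0.000187), and 12.3% of its windows of 50 bases occur in other genes, mainly Irgm2.

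Iigp1, an effector of this family that coats parasite vacuoles, was higher by 9.39, 8.06 and 7.92 log2 units, from 10 fragments over both MEF libraries. Gbp3 was higher by 5.79, 4.98 and 5.40. In normalized CPM both adipose libraries stood above all muscle and pancreas libraries for each of the 5 genes, but on FPKM this held for Gbp2, Igtp and Irgm1 and not for Iigp1 or Gbp3. Their summed level was 396 and 391 CPM in adipose FAP+ cells, 127 and 153 in muscle FAP+ cells, 148 and 145 in pancreas FAP+ cells and 16.7 and 15.1 in MEFs.

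All 6 genes of the class I chains and of peptide loading were called higher in each population and 0 lower. The heavy chain genes H2-K1 and H2-D1 had the largest fold changes of the 6 in adipose, while Tap2 was level with them in muscle and above them in pancreas. H2-K1 had 2127 and 1019 CPM in adipose FAP+ cells, 816 and 799.7 in muscle FAP+ cells, 471 and 405 in pancreas FAP+ cells and 41.9 and 42.2 in MEFs, and its log2 fold changes were 5.23 ± 0.46, 4.26 ± 0.44 and 3.38 ± 0.42 (adjusted p = 0.000135, 0.000297 and 0.000687), with 4.60 in adipose without the first adipose library. H2-D1 had 2038 and 1219 CPM in adipose FAP+ cells, 1078 and 1114 in muscle FAP+ cells, 621 and 538 in pancreas FAP+ cells and 50.5 and 63.5 in MEFs, with 4.84 ± 0.40, 4.27 ± 0.39 and 3.35 ± 0.38 (adjusted p = 0.000108, 0.000196 and 0.000452). In normalized CPM both followed the order adipose above muscle above pancreas above MEFs in every library. On FPKM, adipose and muscle libraries overlapped for H2-D1, at 688 and 775 in adipose and 691 and 747 in muscle. Of the windows of 50 bases, 8.79% in H2-K1 and 14.3% in H2-D1 occur in other genes, mostly in each other or in the near-identical H2-Q genes, so reads can pass between them.

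B2m, the invariant light chain, was the most abundant of the 38 in MEFs and changed far less than the heavy chains. B2m had 448 and 582 CPM in adipose FAP+ cells, 641 and 471 in muscle FAP+ cells, 413 and 529.9 in pancreas FAP+ cells and 139 and 148 in MEFs, log2 differences of 1.84, 1.96 and 1.72 (adjusted p = 0.00265, 0.00229 and 0.00412). With limma on log2(FPKM + 1) they were 0.70, 1.30 and 1.22 and were not called (adjusted p = 0.309, 0.0806 and 0.103). Tap2, a subunit of the peptide transporter, was higher by 3.77, 4.24 and 4.03 log2 units (2.99 in adipose without the second adipose library), and its partner Tap1 by 2.32, 1.39 and 1.59. Tapbp, or tapasin, which joins the transporter to the heavy chain, was higher by 2.48, 2.82 and 2.35.

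**Figure D3:**
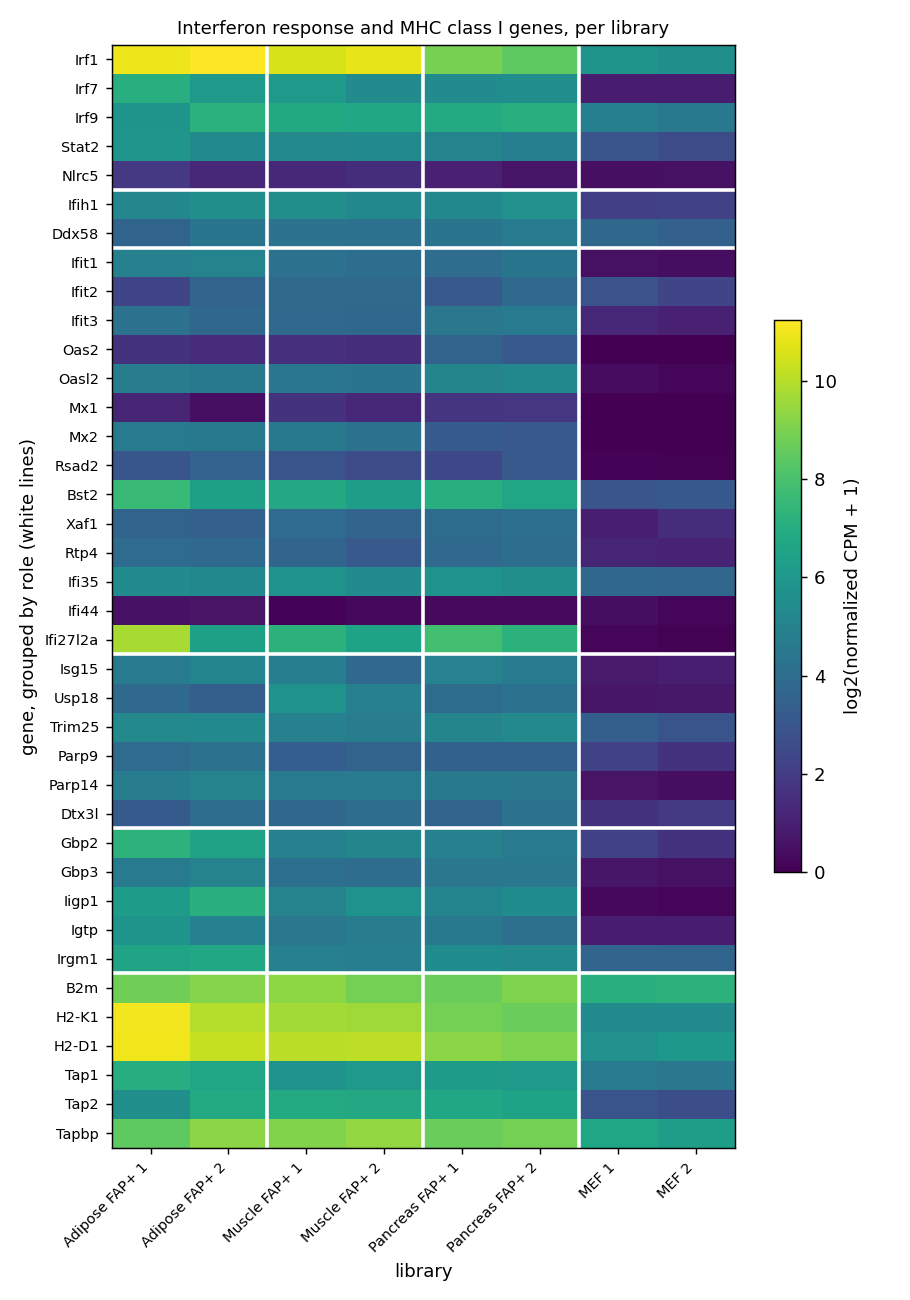
Level of each of the 38 genes (rows, grouped by role between white lines) in each of the 8 libraries (columns) as log2(normalized CPM + 1), from dark (0) to yellow (above 11). The MEF columns are darker than the FAP+ columns for nearly every gene, with Ddx58, Ifit2 and Ifi44 as exceptions, and Irf1, H2-K1 and H2-D1 are the brightest rows in adipose and muscle FAP+ cells.

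Per gene length, the class I genes led the module. Mean FPKM over the 8 libraries was 564 for B2m, 482 for H2-D1, 415 for H2-K1, 362 for Ifi27l2a, 174 for Irf1 and 119 for Bst2, and the lowest was 0.109 for Ifi44. The order differed by group: H2-D1 (732 FPKM) and H2-K1 (720.3) were first in adipose, B2m was first in muscle (735), pancreas (699) and MEFs (294), and Ifi27l2a was second in pancreas (509) but at 0.311 in MEFs. The order rests on RNA amplified from its poly(A) tail, which favours sequence near the 3′ end. At least 100 FPKM in both libraries was reached by 6 genes in adipose, 7 in muscle, 5 in pancreas FAP+ cells and by 1 gene, B2m, in MEFs. At least 1 FPKM in both libraries was reached by 32, 34 and 35 genes in adipose, muscle and pancreas FAP+ cells and by 19 in MEFs.

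The FAP+ populations differed from each other at far fewer genes. In muscle against adipose FAP+ cells 1 of 38 genes was called higher (2.63%, against 2.34% of all genes) and 2 lower (5.26%, against 3.78%). In pancreas against adipose FAP+ cells 1 was called higher (2.63%, against 3.32% of all genes) and 6 lower (15.8%, against 5.73%). In pancreas against muscle FAP+ cells 1 was called higher (2.63%, against 1.54% of all genes) and 1 lower (2.63%, against 2.14%). Apart from the 6 lower genes in pancreas against adipose, these shares are those of 1 or 2 genes and lie near the share over all genes. The differences below are therefore given gene by gene.

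The genes lower in both other tissues than in adipose were GTPases. Gbp2 was lower in muscle than in adipose FAP+ cells, with a log2 difference of -1.90 ± 0.35 (adjusted p = 0.0246), and in pancreas, with -2.21 ± 0.36 (adjusted p = 0.0117). Irgm1 was lower in muscle with a difference of -1.83 ± 0.22 (adjusted p = 0.00698) and in pancreas with -1.22 ± 0.22 (adjusted p = 0.0165). Between pancreas and muscle neither was called, with log2 differences of -0.31 ± 0.35 and 0.61 ± 0.22 (adjusted p = 0.849 and 0.232).

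Irf1, Mx2, H2-K1 and H2-D1 were lower in pancreas than in adipose FAP+ cells. Irf1 differed by -2.40 ± 0.34 (adjusted p = 0.00733) from adipose and by -1.99 ± 0.33 (adjusted p = 0.0219) from muscle, while muscle and adipose differed by -0.42 ± 0.32 (adjusted p = 0.455). Mx2 differed by -1.47 ± 0.27 (adjusted p = 0.0226) from adipose, and its value against muscle, -1.30 ± 0.27, missed the threshold (adjusted p = 0.0524). H2-K1 and H2-D1 differed from adipose by -1.85 ± 0.39 (adjusted p = 0.0293) and -1.49 ± 0.35 (adjusted p = 0.0398), and without the first adipose library the H2-K1 difference was -1.23.

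Oas2 and Usp18 ran the other way. Oas2 was higher in pancreas than in adipose FAP+ cells by 2.31 ± 0.39 (adjusted p = 0.0172) and than in muscle FAP+ cells by 2.39 ± 0.39 (adjusted p = 0.0256). Usp18 was higher in muscle than in adipose FAP+ cells by 1.82 ± 0.34 (adjusted p = 0.0256), and pancreas against muscle gave -1.30 ± 0.34 (adjusted p = 0.0915). Each of the 12 calls in these paragraphs is of a gene whose libraries did not overlap between the tissues compared. A call from the same 2 libraries per tissue makes this likely, so it is no further support.

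**Figure D4:**
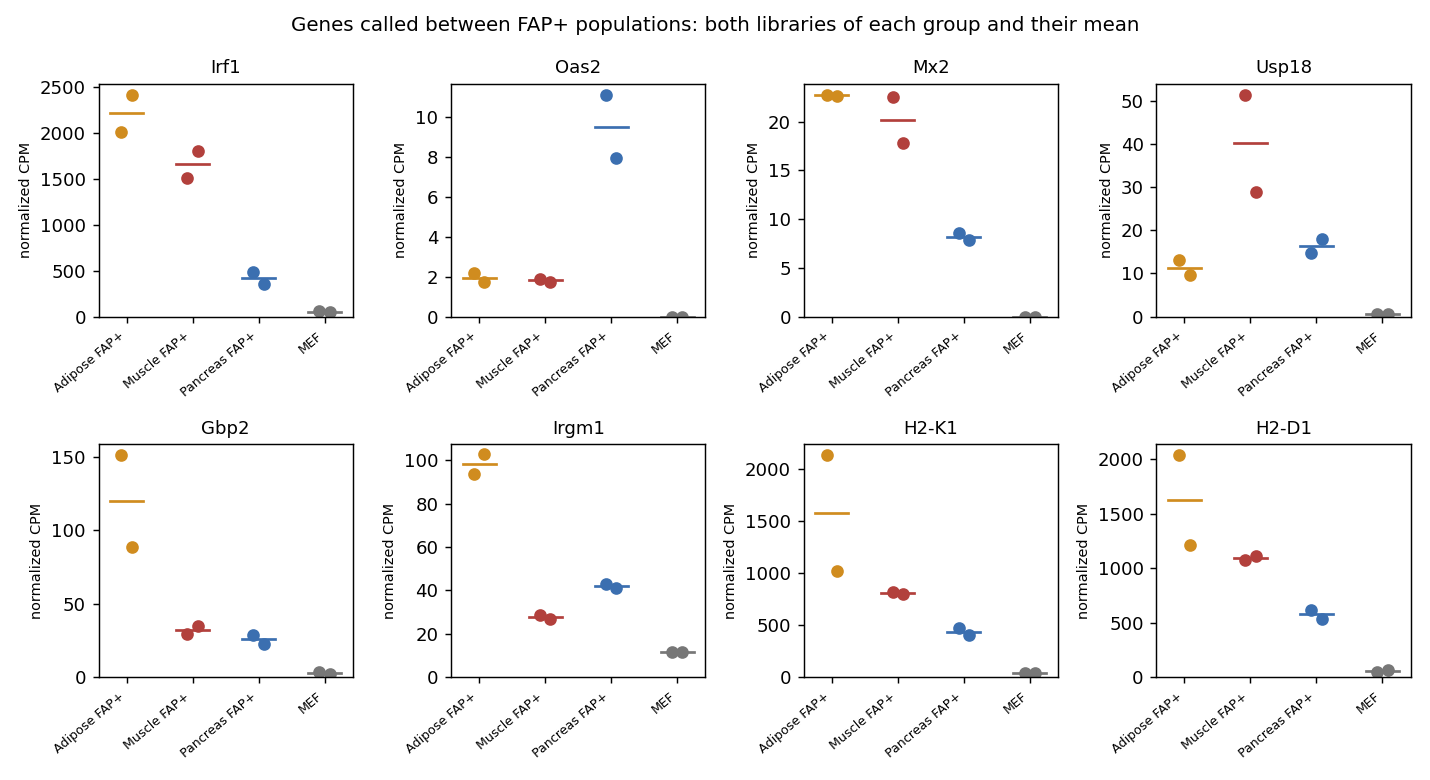
Normalized CPM (linear axis from 0) of the 8 genes called between FAP+ populations, with both libraries of each group as points and their mean as a line, in the order adipose, muscle and pancreas FAP+ cells and MEFs. In this scaling Irf1, Mx2, Gbp2, Irgm1, H2-K1 and H2-D1 have their highest mean in adipose (on FPKM adipose and muscle libraries overlap for Mx2, Irf1 and H2-D1), Oas2 in pancreas (11.1 and 7.92 CPM) and Usp18 in muscle (51.5 and 28.9 CPM), and MEFs are lowest throughout.

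These calls rest on 2 libraries per tissue, and many on the scale. Limma on log2(FPKM + 1) no longer called Gbp2 and Irgm1 in muscle against adipose, or Irf1 in pancreas against muscle. In pancreas against adipose it no longer called Irf1, Mx2, Irgm1, H2-K1 and H2-D1. Usp18, Oas2 and, in pancreas against adipose, Gbp2 kept their calls there, and every value kept its direction. Either muscle library left out ended the 3 muscle-against-adipose calls of Usp18, Gbp2 and Irgm1 (adjusted p = 0.0624 to 0.235). Either pancreas library left out ended the 7 pancreas-against-adipose calls of Irf1, Oas2, Mx2, Gbp2, Irgm1, H2-K1 and H2-D1 (adjusted p = 0.0805 to 0.262), and either library of pancreas or muscle ended the calls of Irf1 and Oas2 between those tissues (adjusted p = 0.110 to 0.254). Leaving out an adipose library ended none of the 12. Libraries outside the tissues compared also enter the fit, through the shared spread. Either muscle library ended the pancreas-against-adipose calls of Oas2, Mx2, Irgm1, H2-K1 and H2-D1 (adjusted p = 0.0527 to 0.096) and either pancreas library the muscle-against-adipose calls of Gbp2 and Usp18 (0.0663 to 0.0691). MEF libraries did so for Usp18 and, for the second alone, Gbp2 between muscle and adipose (0.0506 to 0.0635), for H2-K1 and H2-D1 between pancreas and adipose (0.0639 to 0.0765) and for Irf1 between pancreas and muscle (0.0529 to 0.0539). With the library scaling that CPM include, the median over the 38 genes was -0.39 in muscle and -0.34 in pancreas against adipose, whereas limma on log2(FPKM + 1), which lacks it, gave 0.06 and 0.34 (over all genes 0.07 and 0.10).

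Both adipose libraries stood above all 4 libraries of the other FAP+ populations for 15 of 38 genes (39.5%, against 15.4% of all genes) and below them for 4 (10.5%, against 15.9%). On FPKM, which lacks the low adipose scaling factors, 4 genes (Gbp2, Igtp, Irgm1 and H2-K1) stood above (10.5%, against 6.17% of all genes) and 6 below (15.8%, against 27.3%), a count chosen after the data were seen. The 15 in normalized CPM were Irf1, Irf7, Ifit1, Mx2, Ifi44, Parp9, Parp14, H2-K1, H2-D1, Tap1 and the 5 GTPases. Both muscle libraries were above the rest for 2 genes (5.26%, against 11.7%) and below for 7 (18.4%, against 10.1%), and both pancreas libraries above for 5 (13.2%, against 12.6%) and below for 8 (21.1%, against 12%). On FPKM both muscle libraries were above for 2 (5.26%, against 9.68%) and below for 2 (5.26%, against 5.96%). Both pancreas libraries were on FPKM above for 9 (23.7%, against 26.3%) and below for 5 (13.2%, against 5.26%). Beside this, leukocyte and endothelial markers were also highest in adipose, with 4 and 3 of 7 tested leukocyte markers and 3 and 6 of 7 endothelial markers called lower in muscle and in pancreas than in adipose FAP+ cells, and their part in these differences was not tested. The summed level of all 38 genes was 9215 and 7255 CPM in adipose FAP+ cells, 5763 and 5883 in muscle FAP+ cells, 3639 and 3458 in pancreas FAP+ cells and 529.8 and 506 in MEFs.

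Other genes of the pathway were read from 8 lists of related genes. None of 10 interferon ligand genes passed the low-count filter, and their summed level was 0.611 and 0.238 CPM in adipose FAP+ cells, 0.165 and 0.263 in muscle FAP+ cells, 0.749 and 0.296 in pancreas FAP+ cells and 0 and 0.0293 in MEFs. Ifnb1 was at most 0.228 CPM and Ifng at most 0.285 CPM in any library. These are a few fragments per library, too few to compare the groups at this depth.

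Of 10 interferon receptors, kinases and STATs tested, 5, 3 and 2 were called higher in adipose, muscle and pancreas FAP+ cells and 0 lower (median log2 0.92, 0.58 and 0.67), shares that in muscle and pancreas lie near the 23.7% and 23.1% of all genes. Stat3 was called against MEFs in adipose and missed the threshold in muscle and pancreas (log2 1.38, 0.39 and 0.05; adjusted p = 0.0229, 0.445 and 0.936), while its differences of muscle and of pancreas from adipose were not called (adjusted p = 0.183 and 0.0826). Ifnar2, a chain of the type I receptor, was higher by 2.45 in adipose and 1.32 in muscle, with 1.11 in pancreas (adjusted p = 0.00303, 0.0358 and 0.064).

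Among 12 other interferon regulatory factors and feedback genes tested, 7, 5 and 6 were called higher and 1, 0 and 0 lower (medians 1.98, 0.82 and 0.94). Socs3, an inhibitor of JAK signalling that interleukin-6 family cytokines induce, had 2803 and 1936 CPM in adipose FAP+ cells, 1055 and 1559.7 in muscle FAP+ cells, 1209 and 987 in pancreas FAP+ cells and 34.7 and 25.8 in MEFs (log2 6.29, 5.43 and 5.18). Ptpn2, a phosphatase of JAKs and STATs, was higher than in MEFs in adipose and was not called in muscle and pancreas (log2 1.09, -0.45 and -0.65; adjusted p = 0.0142, 0.222 and 0.0939) and lower in muscle (-1.54, adjusted p = 0.0237) and pancreas (-1.75, adjusted p = 0.012) than in adipose. Of 13 other nucleic acid sensors and adaptors tested, 7, 7 and 8 were higher and 0 lower (medians 0.85, 0.92 and 1.41), with the adaptor Myd88 at 2.38, 1.67 and 1.41 and the adaptor Mavs at 0.08, -0.04 and 0.09 (not called).

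Other interferon-stimulated genes were also mostly higher in FAP+ cells. Of 35 tested, 31, 29 and 31 were called higher in adipose, muscle and pancreas FAP+ cells and 0 lower, with median log2 fold changes of 4.42, 4.43 and 4.52. The most abundant were Ifitm3, which blocks virus entry, at 1789 and 609 CPM in adipose FAP+ cells, 594 and 495 in muscle FAP+ cells, 669 and 544 in pancreas FAP+ cells and 151 and 124 in MEFs, and its neighbour Ifitm2, with log2 differences of 2.37, 1.65 and 1.77. The remaining class I and loading genes were mixed. Of 11 tested (H2-Q4 was not analysed here), 5, 5 and 3 were higher and 1, 2 and 2 lower, which in pancreas is near the 23.1% and 19.4% of all genes. Canx, which encodes the folding chaperone calnexin, was lower in every population, with 177 and 336 CPM in adipose FAP+ cells, 245 and 263 in muscle FAP+ cells, 273 and 349 in pancreas FAP+ cells and 1130.3 and 606 in MEFs (log2 -1.76, -1.77 and -1.48; adjusted p = 0.0125, 0.0134 and 0.0267), and Pdia3, its disulfide isomerase partner, had -1.57, -1.61 and -1.08 without being called. These are general chaperones of the endoplasmic reticulum.

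MHC class II genes and interferon-induced chemokines had their highest summed levels in adipose FAP+ cells. Of 7 class II genes, 6, 5 and 5 were higher than in MEFs and 0 lower, and 3 were lower in muscle and 3 in pancreas than in adipose FAP+ cells. Cd74, the invariant chain, had 44.4 and 23.1 CPM in adipose FAP+ cells, 1.54 and 1.76 in muscle FAP+ cells, 3.36 and 2.89 in pancreas FAP+ cells and 0.983 and 0.302 in MEFs, and H2-Ab1 had 31.2 and 10.7 CPM in adipose FAP+ cells, 1.34 and 0.631 in muscle FAP+ cells, 1.35 and 1.92 in pancreas FAP+ cells and 0.0519 and 0.160 in MEFs. Of 5 chemokines tested, 5, 4 and 4 were higher than in MEFs and 0 lower, and 2 were lower in muscle and 4 in pancreas than in adipose. Ccl7 had 1314 and 729 CPM in adipose FAP+ cells, 213 and 111 in muscle FAP+ cells, 32.0 and 30.5 in pancreas FAP+ cells and 10.1 and 10.2 in MEFs, and Ccl2 had 1078 and 717 CPM in adipose FAP+ cells, 169.6 and 71.1 in muscle FAP+ cells, 33.1 and 32.6 in pancreas FAP+ cells and 9.52 and 10.4 in MEFs. Both attract monocytes and are also induced by other inflammatory signals, and Ccl2 differed from adipose by -2.90 ± 0.46 in muscle (adjusted p = 0.0141) and -4.77 ± 0.50 in pancreas (adjusted p = 0.00353). The leukocyte marker Fcer1g, at 33.1 and 5.45 CPM in adipose, was higher in the first adipose library, as Cd74 was (44.4 and 23.1 CPM), and its part was not tested.

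**Figure D5:**
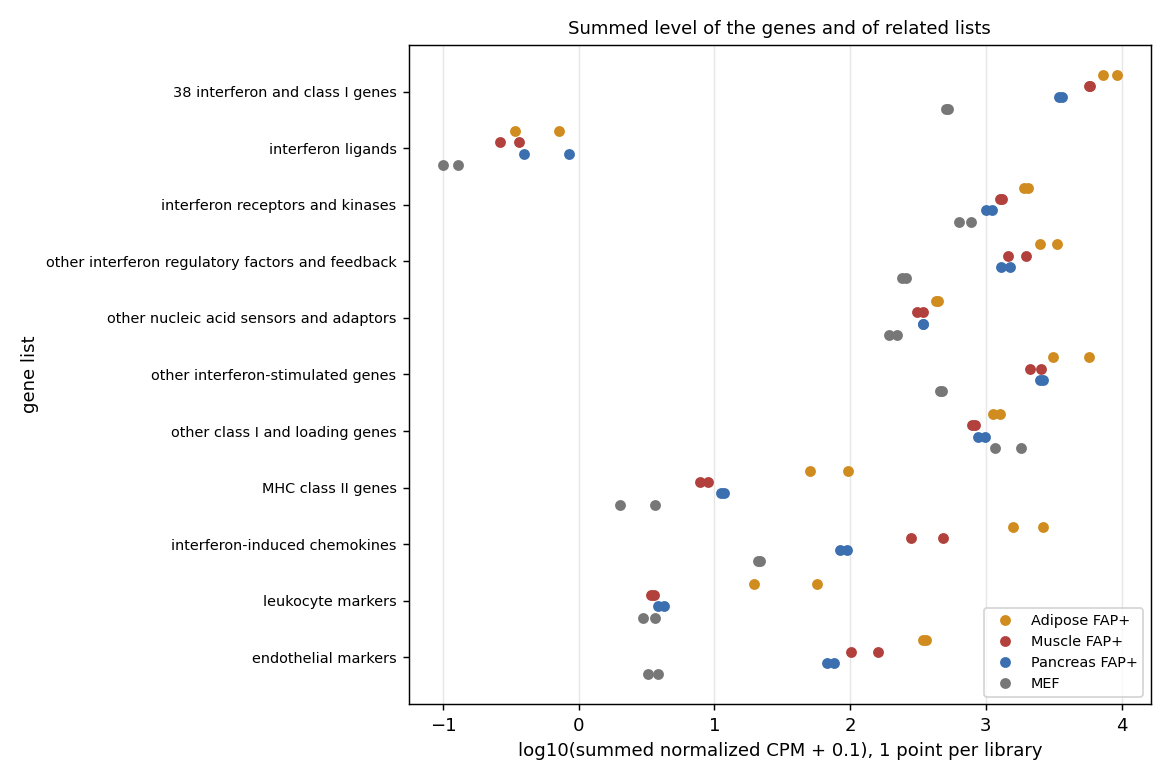
Summed normalized CPM of the 38 genes, of 8 lists of related genes and of leukocyte and endothelial markers (rows), on an axis of log10(CPM + 0.1), with 1 point per library, coloured adipose, muscle and pancreas FAP+ cells and MEFs. The 38 genes and the other interferon-stimulated genes separate FAP+ cells from MEFs, the interferon ligands are at or below 0.749 CPM everywhere, and other class I and loading genes summed to 1818 and 1167 CPM in MEFs, within or above the range of the FAP+ cells.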

How the data were processed

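Mouse RNA was amplified by in vitro transcription from its poly(A) tail and sequenced as 8 libraries, 2 for each of 4 groups, per the labels' protocols. The authors deposited 3 tables: bias-adjusted estimated counts of fragments per gene (not whole, neither length- nor depth-scaled), FPKM from the same adjustment, and RPKM. Per the submitters' processing notes the tools were Bowtie2, TopHat2, HTSeq and edgeR on build mm9, with no versions or roles; what made the bias adjustment is not stated in them. The columns headed as FAP-negative embryonic cells were taken as the MEF samples. Further columns of other samples, numbering 6 in each table, were not used.

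After rounding to whole numbers, the estimated counts went into edgeR 4.0.16 in R 4.3.3 (filterByExpr on the 4 groups, TMM factors, glmQLFit and glmQLFTest), all 8 libraries in 1 fit which left 4 residual degrees of freedom (common biological variation coefficient 33.2%). In each of 6 comparisons the Benjamini-Hochberg adjustment ran over 14847 genes, and a gene was called at an adjusted p below 0.05. Printed ± values after fold changes are standard errors derived from the test, as the absolute log2 fold change divided by the square root of its F statistic. Alternatives used RLE and upper quartile scaling, other filters, only the groups compared, a replicate block, DESeq2 1.42.0, limma 3.58.1 on log2(FPKM + 1 or 0.1), and each library left out. Whole reads were recovered from the deposited RPKM table: 100% of values were whole within 0.01 for 21673 of 22609 genes (936 were at 0), with totals of 9497241 to 16807797, and edgeR on them called 8127, 7995 and 7689 genes against MEFs in adipose, muscle and pancreas FAP+ cells. The fit was tested on simulated counts.

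Genes at 0 in MEFs were set against a floor of 3 fragments per library, which covers counting error only. Promoters came from RefSeq (GRCm38.p6), and no coordinate of the authors' build was used. Shared sequence was measured on GENCODE transcripts of the same assembly in windows of 50 bases. All 38 genes are described by role, with values in every library for the most abundant or role-defining ones, those called between FAP+ populations and those never called. The members, gene lists and marker lists were chosen with earlier results of these data known.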

Additional observations from a re-analysis of the deposited data

Results flagged for a closer look

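Of the values against MEFs, those of 8 genes differed between FAP+ populations by the test of the difference itself, in 12 comparisons (edgeR's quasi-likelihood test, adjusted over all genes). In muscle against adipose FAP+ cells the log2 differences were 1.82 for Usp18 (adjusted p = 0.0256), -1.90 for Gbp2 (0.0246) and -1.83 for Irgm1 (0.00698). In pancreas against adipose FAP+ cells they were 2.31 for Oas2 (adjusted p = 0.0172), -2.40 for Irf1 (0.00733), -2.21 for Gbp2 (0.0117), -1.47 for Mx2 (0.0226), -1.22 for Irgm1 (0.0165), -1.85 for H2-K1 (0.0293) and -1.49 for H2-D1 (0.0398). In pancreas against muscle FAP+ cells they were 2.39 for Oas2 (adjusted p = 0.0256) and -1.99 for Irf1 (0.0219). None of the 12 kept its call under every alternative.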

How the results depend on the processing

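Against MEFs, no call changed direction under any alternative, and the counts of called genes stayed within 1.5 times those reported: 26 to 37 of 38 in adipose, 27 to 37 in muscle and 30 to 36 in pancreas FAP+ cells, and 24 to 36 in all 3, with the lowest under limma on FPKM. In adipose 26 of 35 called genes, in muscle 27 of 35 and in pancreas 30 of 34 kept their call under every alternative in which they were tested (Mx1 and Nlrc5 were not tested in all of them). The count of genes with both adipose libraries above the other FAP+ libraries was 4 on FPKM, an alternative chosen after the data were seen, and 15 in normalized CPM. Between FAP+ populations, where 3, 7 and 2 genes were called in muscle against adipose, pancreas against adipose and pancreas against muscle, the counts moved. In that order they were 7, 12 and 4 with DESeq2 and 10, 13 and 4 on recovered reads. With only the groups compared in the fit they were 0, 0 and 8. Limma gave 1, 3 and 1 on log2(FPKM + 1), where pancreas against adipose had 2 higher and 1 lower. It gave 1, 2 and 1 with 0.1 added, and 1, 4 and 1 with the 1 FPKM filter. Calls over all genes moved as well, from 908, 1344 and 545 of 14847 as reported. They were 2016, 2405 and 1055 with DESeq2 and 1933, 3235 and 864 of 14365 on recovered reads. With only the groups compared they were 74, 305 and 1752, and with limma on log2(FPKM + 1) 451, 836 and 453 of 21784. Leaving out 1 library gave 0 to 14, 0 to 16 and 0 to 7. For muscle against adipose the count was 0 without either muscle library, 1 without either pancreas library or the second MEF library, and 5 and 14 without the first and second adipose library. For pancreas against adipose it was 0 without either pancreas library, 2 without either muscle library and 16 without the second adipose library, and for pancreas against muscle 0 without any muscle or pancreas library, 1 without either MEF library and 7 and 6 without the first and second adipose library. Calls over all genes also moved when a library was left out. The causes were not tested. Counts of all genes called were 8127 on recovered reads and 7445 as reported in adipose against MEFs, and 3235 and 1344 in pancreas against adipose. The median of all genes shifted by -0.93, -0.59 and -0.47 against MEFs in adipose, muscle and pancreas FAP+ cells with limma and the 1 FPKM filter. The numbers do not pair samples across groups (correlations of deviations from -0.22 to 0.45), and the replicate block left the counts at 35, 35 and 34 against MEFs and 3, 7 and 2 between populations, though H2-D1 between pancreas and adipose lost its call. With 2 libraries per group and genes down to a few fragments in MEFs, fold changes of Ifi27l2a, Rsad2 and Iigp1 rest on 6, 5 and 10 fragments over both MEF libraries.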

Other observations

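The adipose libraries, which carry the most extreme library scaling (0.516 and 0.889), differed from each other more than those of other groups: 8 of the 38 genes were over 2-fold apart between them, against 1 in muscle FAP+ cells, 0 in pancreas FAP+ cells and 2 in MEFs. This spread was not particular to the 38 genes. The standard deviation of the log2 ratio between the adipose libraries (CPM + 1) was 0.86 over the 38 genes and 0.94 over all genes tested. Over all genes tested it was 0.38 in muscle FAP+ cells, 0.40 in pancreas FAP+ cells and 0.42 in MEFs. Ifi27l2a (10.6 times higher in the first), Mx1 (3.23), Bst2 (2.37), H2-K1 (2.09) and Irf7 (2.03) were higher in the first adipose library, while Ifit2 (0.377), Irf9 (0.391) and Tap2 (0.415) were lower there.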
